A study of Mus musculus with 14 samples.

Results

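The nuclear genes of oxidative phosphorylation were taken as all gene symbols of the deposited count matrix that name a subunit of complexes I to V of the respiratory chain, which are the Ndufa, Ndufb, Ndufc, Ndufs, Ndufv, Sdh, Uqcr, Cox4 to Cox8 and Atp5 symbols. Assembly factors of the Ndufaf series and 4 symbols marked as pseudogenes were left out. The rule found 84 of 23441 genes, with 38 in complex I, 4 in complex II, 8 in complex III, 17 in complex IV and 17 in complex V. They lay on 19 chromosomes, with 3 on X and at most 9 on any chromosome, and 83 were annotated as protein coding. The exception, Cox6c2, was annotated as a processed pseudogene, reached at most 0.418 CPM (reads of a gene scaled to a common library total), and fell below the filter on low counts, so that 83 members were tested. Ndufa4l2 and Cox7a2l matched the symbols but are not structural subunits, being a hypoxia-induced relative of Ndufa4 and a factor of supercomplex assembly.

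The samples were distal tibial bone marrow plugs from 24-week-old male mice of the C57BL6/SJL strain, a site rich in constitutive marrow adipocytes. Per the study's methods both genotypes carried BMAd-Cre, and they differed in the floxed alleles of Pnpla2. BMAd-Pnpla2-/- mice had these alleles, so that adipose triglyceride lipase, the first enzyme of triglyceride breakdown, was targeted in marrow adipocytes, and BMAd-Pnpla2+/+ mice, the controls, did not. Both genotypes were fed ad libitum (AL) or were placed on a 30% caloric restriction (CR) for 6 weeks. There were 4 BMAd-Pnpla2+/+ AL, 4 BMAd-Pnpla2+/+ CR, 3 BMAd-Pnpla2-/- AL and 3 BMAd-Pnpla2-/- CR samples, and each pooled the plugs of a pair of mice. BMAd-Cre requires Osterix-driven FLPo to activate a Cre placed in the Adipoq locus, it comes from a single founder, its recombination increases with age, and mice that carry it, here the controls as well, have lower circulating adiponectin. Each plug holds every cell of the marrow, so the values below are those of whole tissue, in which fewer cells of a type and less RNA per cell cannot be told apart.

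Oxidative phosphorylation passes electrons from NADH through complex I, or from succinate through complex II, to ubiquinone, then through complex III and cytochrome c to complex IV, which reduces oxygen. Complexes I, III and IV pump protons across the inner mitochondrial membrane, and complex V, the ATP synthase, uses their return to make ATP. A small set of core subunits of complexes I, III, IV and V is encoded by the mitochondrial genome, whereas complex II and the remaining subunits are encoded in the nucleus. Marrow adipocytes hold mitochondria and can oxidise the fatty acids that lipolysis releases, and developing red cells, dividing progenitors and macrophages of the marrow respire as well.

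Between 18898324 and 21665553 reads were assigned to genes in each sample when both strands were counted together. In 11 libraries 4.30% to 4.62% of the stranded gene reads lay on the strand opposite to the protocol's, whereas in the 3 BMAd-Pnpla2-/- CR libraries this was 50.1% to 50.5%, so strand information was missing from that group alone. The deposited matrix held reverse-strand counts for the 11 and unstranded counts for the 3, and unstranded counts were therefore used for all 14. The strand difference and the BMAd-Pnpla2-/- CR group cannot be told apart. Pnpla2 itself stood at 305, 176, 202 and 192 CPM in BMAd-Pnpla2+/+ AL, at 816, 1006, 1029 and 509 in BMAd-Pnpla2+/+ CR, at 137, 172 and 133 in BMAd-Pnpla2-/- AL and at 180, 222 and 271 in BMAd-Pnpla2-/- CR. Under CR all BMAd-Pnpla2-/- samples were below all BMAd-Pnpla2+/+ samples (log2 fold change -1.91 ± 0.26 SE, adjusted p = 0.0387). Under AL the difference was -0.57 (adjusted p = 1).

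Defining adipocyte transcripts were present in every sample but were a small part of the RNA. The 8 adipocyte markers (among them Adipoq, Plin1 and Lipe) summed to between 301 and 1708 CPM under AL and between 1208 and 4687 CPM under CR, whereas 11 erythroid markers summed to between 10794 and 52845 CPM and 11 neutrophil markers to between 15398 and 36708 CPM. All 8 adipocyte markers rose with CR, and their median log2 fold change was 2.07 in the BMAd-Pnpla2+/+ and 2.22 in the BMAd-Pnpla2-/- comparison. Brown adipocyte markers summed to at most 3.07 CPM in any sample.

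Within each complex the members were expressed at unequal levels. Per kilobase of the principal transcript, and averaged over the 14 samples, the highest level belonged to Atp5b, the catalytic beta subunit of the ATP synthase, at 362 CPM per kb, followed by Cox6a1 at 272, Cox8a at 250 and Atp5a1, the alpha subunit, at 235. In complex I the level per kilobase ran from 157 CPM per kb for the accessory subunit Ndufb7 to 4.47 for Ndufa4l2. In complex III it ran from 150 for Uqcrq to 37.1 for the core protein Uqcrc2. The succinate dehydrogenase genes of complex II stood at 70.1 for Sdhb, which carries the iron-sulfur centres, 60.7 for the flavoprotein Sdha, 51.4 for Sdhd and 21.8 for Sdhc, the latter pair being the membrane anchors. Counting lowered the values of a few members, since a read over 2 genes of opposite strands is discarded from an unstranded count. The sum of the reverse- and first-strand counts was 4.67 times the unstranded count for Atp5l, 3.06 times for Atp5o, 2.46 times for Ndufab1 and 2.02 times for Ndufa11, and it was over 1.2 times for 13 members in all. In addition, 19 members shared over 20% of the 50-base stretches of their principal transcript with another gene, up to 100% for Atp5g2 and 68.5% for Atp5l, and their reads may be split with those copies.

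Promoter sequences were read for 67 of the 84 members from RefSeq (assembly GRCm38.p6), from 250 bases before to 50 bases after the annotated start. A gene was counted if any of its promoters held the letters, and the background was every gene with a RefSeq promoter, without regard to its expression. The letters GCATGCGC, the core of the site bound by nuclear respiratory factor 1 (NRF1), were present on either strand in 10 of the 67 (14.9%). This was so for 3.05% of all 27025 genes with a promoter. The letters CCGGAAG, which ETS factors such as GABPA bind, were present in 17 (25.4%), against 9.93% of all genes with a promoter. The YY1 letters AAGATGGCG were found in 7 (10.4%, against 1.64%) and the half-site of oestrogen-related receptors, AAGGTCA, in 8 (11.9%, against 5.38%). These are matches of letters and not measured binding. The 4 stretches below are shown because they belong to members on which the diet comparisons below turn, and capitals mark the NRF1 letters (10 capitals where the 8 letters occur on both strands and overlap) or the ETS letters. The coordinates are those of GRCm38.p6, each sequence reads 5′ to 3′ on the strand of its gene, and the last base of the stretch is the base before the start, except for Atp5k, where the last 20 bases before the start are not shown.
Ndufa11, chr17:56717662-56717761, plus strand: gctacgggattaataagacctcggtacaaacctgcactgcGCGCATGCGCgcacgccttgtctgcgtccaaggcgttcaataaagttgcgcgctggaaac
Atp5k, chr5:108434420-108434499, minus strand: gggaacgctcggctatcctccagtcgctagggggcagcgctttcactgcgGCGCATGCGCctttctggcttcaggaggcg
Ndufb7, chr8:83566728-83566757, plus strand: cctagatgacCCGGAAGacactgaaggggc
Uqcrh, chr4:116075071-116075170, minus strand: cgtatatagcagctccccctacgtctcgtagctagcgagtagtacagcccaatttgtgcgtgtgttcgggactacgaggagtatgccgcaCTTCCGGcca

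The first comparison asked how CR changed these genes in mice with intact marrow adipocyte lipolysis. In BMAd-Pnpla2+/+ mice CR lowered 17 of the 83 members and raised 1, and the changes were small, with Cox6a2 alone past a log2 fold change of 1 in size. The 18 members called (adjusted p under 0.05, edgeR quasi-likelihood test over 17494 genes) were 21.7% of the members, whereas 26% of all genes tested were called. By direction, 20.5% of members fell against 10.9% of all genes, and 1.2% rose against 15% of all genes. The study's added criterion of an absolute log2 fold change over 1 was met by 9.19% of all genes. The median log2 fold change of the members was -0.16, against 0.00 over all genes, and 65 of the 83 lay below 0, where 49.8% of all genes did. Without BMAd-Pnpla2+/+ CR replicate 3 the count of members called was 9, with 12.7% of all genes called, and without BMAd-Pnpla2+/+ CR replicate 1 it was 27, with 26.6% of all genes called and a median of the members of -0.25.

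In complex V all 17 members were lower under CR, with log2 fold changes from -0.72 to -0.12 and a median of -0.28, and 5 fell. Atp5k, subunit e of the membrane part, fell from 29.5, 35.3, 33.4 and 30.8 CPM under AL to 22.9, 21.4, 16.2 and 18 under CR (log2 fold change -0.72 ± 0.17 SE, adjusted p = 0.01). The ranges of the groups did not overlap. Atp5o, which codes for the stalk protein OSCP, fell by 0.59 on the log2 scale (adjusted p = 0.0164), Atp5h and Atp5f1 of the same peripheral stalk fell by 0.45 and 0.43, and Atp5c1, the rotating gamma subunit, fell by 0.22. The catalytic Atp5a1 and Atp5b differed by -0.19 and -0.12 (adjusted p = 0.131 and 0.452), and Atp5d and Atp5e of the central stalk by -0.12 and -0.35 (adjusted p = 0.445 and 0.0514). The 3 genes for subunit c, which forms the rotor ring, were at -0.29 for Atp5g1, -0.20 for Atp5g2 and -0.18 for Atp5g3, none past the threshold. Averaged over its members, complex V stood at 6.25 ± 0.04 (log2 CPM, SD, n = 4) under AL and at 5.93 ± 0.11 (n = 4) under CR, and it was the only complex in which the AL samples (6.21 to 6.30) and CR samples (5.84 to 6.08) did not overlap, in any comparison of diets or genotypes.

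**Figure D1:**
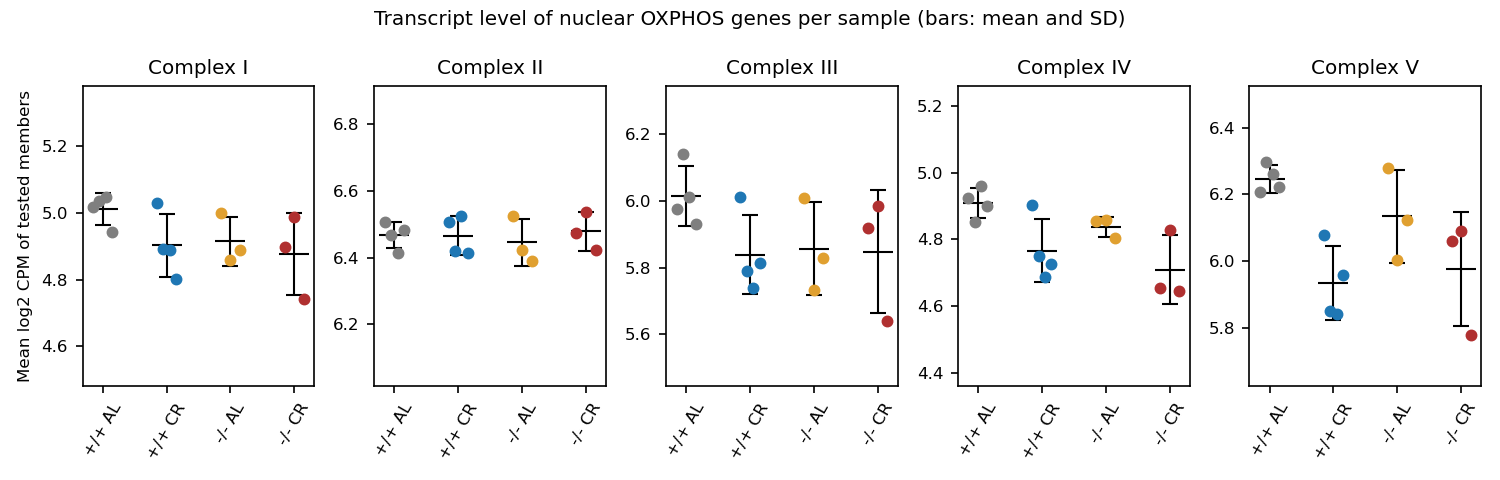
Mean log2 CPM over the tested members of each complex (vertical axis) in every sample, by group, with the group mean and SD, on axes that do not start at 0. In complex V the 4 BMAd-Pnpla2+/+ CR samples (5.84 to 6.08) lie below the 4 AL samples (6.21 to 6.30), whereas the groups overlap in complexes I to IV.

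In complex I, 7 members fell and 1 rose, with a median of -0.10 over the 38. Most of those that fell were accessory subunits of the membrane arm. Ndufb7 went from 115, 132, 142 and 108 CPM under AL to 99.2, 94.6, 69.6 and 81.6 under CR (log2 fold change -0.53 ± 0.12 SE, adjusted p = 0.00951), without overlap of the groups. Ndufa13 fell by 0.45, Ndufa3 by 0.43, Ndufb10 by 0.41 and Ndufa11 by 0.27 on the log2 scale, the last with adjusted p = 0.0339. From reverse-strand counts, fitted without BMAd-Pnpla2-/- CR, Ndufa11 was at -0.16 with adjusted p = 0.189. Among the core subunits encoded in the nucleus, which hold the flavin and the iron-sulfur clusters, Ndufs8 fell by 0.30 (adjusted p = 0.0325) and Ndufv2 by 0.31 (adjusted p = 0.0455). Other core subunits had log2 fold changes close to 0, at -0.01 for Ndufv1, -0.01 for Ndufs1, 0.07 for Ndufs3 and 0.00 for Ndufs7. Ndufa12 was the largest increase among structural subunits, at 0.14 (adjusted p = 0.339). The member that rose was Ndufa4l2, from 3.52, 3.85, 2.92 and 2.64 CPM to 4.80, 9.02, 6.81 and 3.26 (log2 fold change 0.89 ± 0.28 SE, adjusted p = 0.0326), with overlapping groups and a low level throughout.

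In complex II no member was called by edgeR or DESeq2 (0 of 4, with 0 at an unadjusted p under 0.05). Sdha was 0.14 and Sdhc 0.13 higher, Sdhb 0.13 and Sdhd 0.15 lower in log2 fold change, none past the threshold (adjusted p = 0.197, 0.273, 0.184 and 0.185), and the mean over the 4 genes was 6.47 in both diets. In complex III 1 of 8 members fell. Uqcrh, the hinge protein that helps cytochrome c1 bind cytochrome c, went from 52.6, 65.5, 57.4 and 61.4 CPM under AL to 44.9, 38.5, 35.3 and 39.4 under CR (log2 fold change -0.58 ± 0.11 SE, adjusted p = 0.0037). Its groups did not overlap. The core proteins Uqcrc1 and Uqcrc2 were at -0.25 (adjusted p = 0.0686) and -0.12 (adjusted p = 0.387), the Rieske protein Uqcrfs1 at 0.09, and the small subunits Uqcrb and Uqcr10 at -0.28 and 0.11.

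In complex IV 4 of 16 tested members fell and none rose. Cox6a2, the isoform of subunit VIa known from heart and skeletal muscle, stood at 6.12, 8.66, 6.89 and 6.97 CPM under AL and at 3.51, 3.10, 2.12 and 3.05 under CR (log2 fold change -1.28 ± 0.19 SE, adjusted p = 0.00147). It was the lowest adjusted p among the 83 members, at a level far below that of its general counterpart Cox6a1, which was at -0.09 (adjusted p = 0.583). In the 11 stranded libraries 26% of the stranded reads over Cox6a2 lay on the opposite strand, where Itgad is annotated, and the decrease was also called from reverse-strand counts. The 13 muscle markers summed to 12.7 to 37.1 CPM under AL and 10.7 to 21.3 under CR. None of the 7 tested was called, their median log2 fold change was -0.54, and their part in the decrease of Cox6a2 was not tested. Cox5b fell by 0.42, Cox6b1 by 0.36 and the assembly factor Cox7a2l by 0.23 on the log2 scale. Cox4i2, the isoform induced at low oxygen, was at 0.93 (adjusted p = 0.0935), against -0.16 for Cox4i1, and Cox8a was at 0.13 (adjusted p = 0.284).

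**Figure D2:**
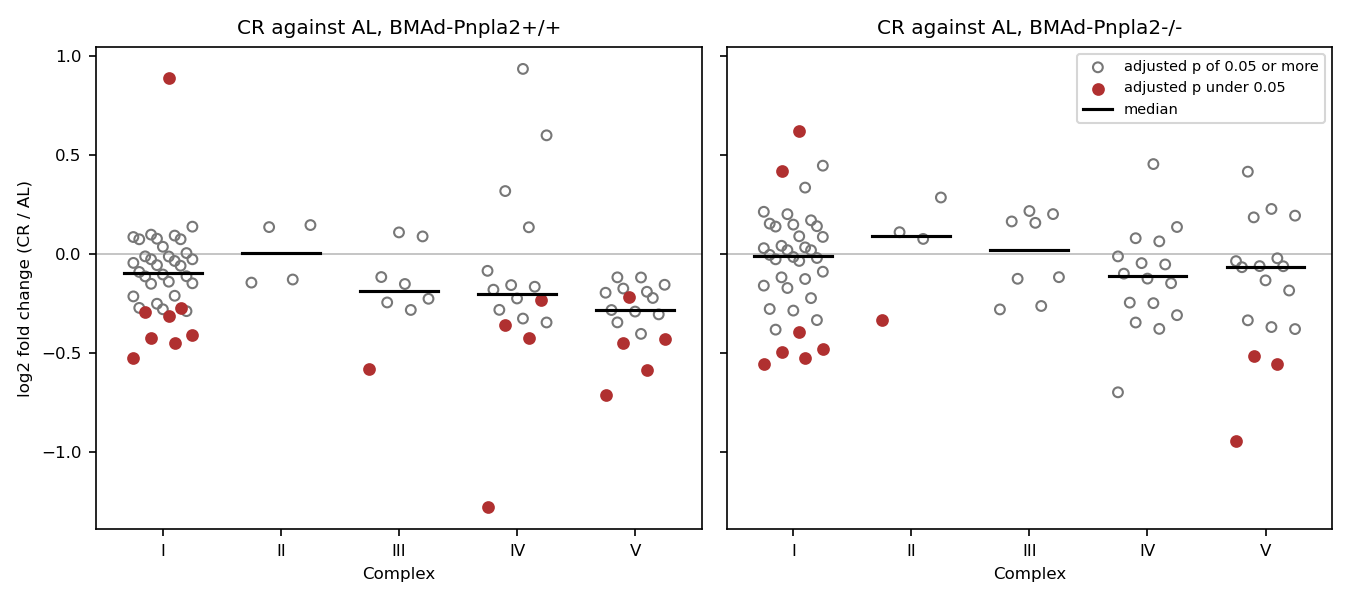
Log2 fold change of CR against AL (vertical axis) for each tested member by complex (horizontal axis), in BMAd-Pnpla2+/+ (left) and BMAd-Pnpla2-/- mice (right), with members at an adjusted p under 0.05 filled and black bars at the median of each complex. All 17 complex V members lie below 0 in BMAd-Pnpla2+/+ (-0.72 to -0.12) and 13 of 17 in BMAd-Pnpla2-/-.

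Several marker lists of other cells moved in the same comparison. Of 11 neutrophil markers 7 fell (sum 28104 to 36708 CPM under AL, 15398 to 25867 under CR), of 11 proliferation genes 7 fell (3809 to 5755 against 1381 to 3871), of 12 pro-B and pre-B markers 6 fell (406 to 1648 against 637 to 728), and of 5 megakaryocyte markers 3 fell (1531 to 2621 against 744 to 1517). All 8 adipocyte markers, 5 of 10 stromal, endothelial and bone markers and 4 of 8 T and NK cell markers rose, and of 9 monocyte and macrophage markers 1 rose and 2 fell. None of the 11 erythroid markers was called (sum 18732 to 34812 CPM under AL, 10794 to 52478 under CR, median log2 fold change -0.52). Of the 4 brown adipocyte markers Cidea alone was tested and rose. The part of these marker lists in the members' changes was not tested.

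The same question was put to mice in which the lipase was targeted in marrow adipocytes. In BMAd-Pnpla2-/- mice 9 members fell and 2 rose with CR, none past a log2 fold change of 1 in size. The 11 called were 13.3% of the 83, against 11.6% of all genes tested. Of the members 10.8% fell, against 5.57% of all genes, and 2.41% rose, against 6.01%, while 3.52% of all genes also passed the fold criterion of 1. The median of the members was -0.05 and that of all genes 0.05. The calls of members and of all genes fell together when a sample was left out. No member was called without BMAd-Pnpla2-/- CR replicate 3 (1.38% of all genes), 3 were called without BMAd-Pnpla2-/- AL replicate 1 (2.46%), 4 without BMAd-Pnpla2-/- AL replicate 3 (2.83%), 5 without BMAd-Pnpla2-/- CR replicate 2 (4.54%) and 7 without BMAd-Pnpla2-/- CR replicate 1 (7.84%). In this comparison the 8 adipocyte markers rose, 6 of 12 pro-B and pre-B markers fell (sum 969 to 1206 CPM under AL, 324 to 683 under CR), 2 T and NK cell markers and the stromal gene Kitl rose, and Ly6g was the only neutrophil marker that fell. No erythroid, megakaryocyte, monocyte and macrophage, muscle or proliferation marker was called by edgeR, and the part of other cells in the members' changes was not tested.

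In complex I, 5 members fell and 2 rose. Ndufa6, an accessory subunit of the matrix arm, went from 51.8, 50.4 and 53.9 CPM under AL to 36.9, 36.4 and 32.7 under CR (log2 fold change -0.56 ± 0.10 SE, adjusted p = 0.00944). The 3 CR samples were below every other sample of the series for this gene. Ndufb7 fell by 0.52 on the log2 scale, Ndufa11 by 0.49, the core subunit Ndufs8 by 0.48 and Ndufa7 by 0.40. Ndufc2 rose from 32.9, 29.3 and 26.4 to 40.0, 51.6 and 44.5 CPM (log2 fold change 0.62 ± 0.16 SE, adjusted p = 0.0261). Ndufa4, named as a complex I gene but known as a subunit of complex IV, rose from 50.5, 43.4 and 46.9 to 67.2, 69.1 and 52.2 CPM (0.42 ± 0.13 SE, adjusted p = 0.0478). The ranges of these genes did not overlap between the diets. Ndufb2 was 0.45 higher (adjusted p = 0.119). Other core subunits were not called, at 0.21 for Ndufv1, -0.28 for Ndufv2, 0.15 for Ndufs1, 0.20 for Ndufs3 and -0.12 for Ndufs7.

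In complex II Sdhb fell from 86.2, 82.4 and 82.8 to 68.4, 68.1 and 62.5 CPM (log2 fold change -0.34 ± 0.08 SE, adjusted p = 0.0222), without overlap. Sdhc was at 0.28 (adjusted p = 0.0868), Sdha at 0.11 and Sdhd at 0.07. No member of complexes III or IV was called by edgeR (0 of 8 and 0 of 16 tested, with 1 and 5 at an unadjusted p under 0.05), whereas DESeq2 called Cox6a2, Cox6a1, Cox5b and Cox6b1. In complex III Uqcr11 and Uqcrc1 were at -0.28 and -0.26, Uqcrb and Uqcrh at 0.20 and 0.22, Uqcrc2 at 0.16 and Uqcrfs1 at -0.13. In complex IV Cox6a2 stood at 5.89, 7.36 and 6.81 CPM under AL and 3.31, 4.96 and 4.08 under CR, which did not overlap (-0.70 ± 0.22 SE, adjusted p = 0.0503). Cox6a1 was at -0.38, Cox4i2 at 0.45 and Cox7b at 0.14. BMAd-Pnpla2-/- CR replicate 3 carried 154 CPM of muscle markers, against 10.7 to 50.2 in the other 13 samples. Its Cox6a2 lay between those of the other samples of its group. This is 1 library, and the part of muscle in the Cox6a2 values was not tested. By the DESeq2 Wald test 19 of 83 members and 17.7% of all genes were called in this comparison.

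In complex V 3 of 17 members fell. Atp5k was at 25.9, 21.1 and 19.8 CPM under AL and 13.6, 13.2 and 7.85 under CR (log2 fold change -0.95 ± 0.20 SE, adjusted p = 0.0126), the 3 CR values being the lowest of the series. The central stalk genes Atp5d and Atp5e fell by 0.56 and 0.51 on the log2 scale (adjusted p = 0.0198 and 0.035). Atp5a1 and Atp5b were at -0.06 and -0.06 and Atp5c1 at -0.07, and the subunit c genes at -0.38 for Atp5g1, -0.37 for Atp5g2 and 0.18 for Atp5g3. Atp5l and Atp5md, with 0.41 and 0.23, were the highest of the complex (adjusted p = 0.105 and 0.418). Averaged over members, complex V stood at 6.13 ± 0.14 (SD, n = 3) under AL and 5.98 ± 0.17 (n = 3) under CR, with overlapping groups.

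**Figure D3:**
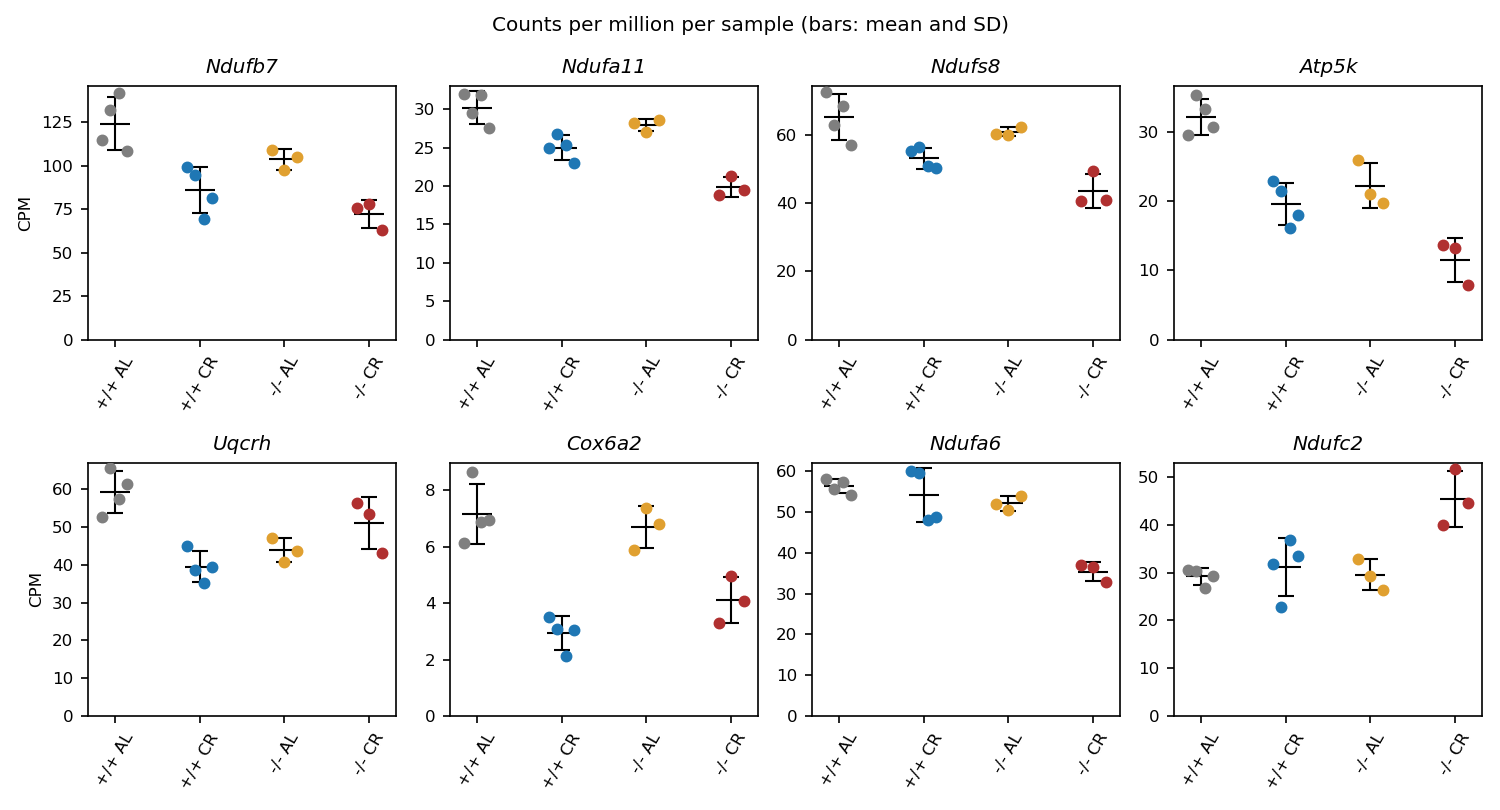
CPM (vertical axis) of 8 members in each of the 14 samples, by group, with the group mean and SD. Ndufb7, Ndufa11, Ndufs8 and Atp5k are lower under CR in both genotypes without overlap, Uqcrh and Cox6a2 fell in BMAd-Pnpla2+/+, and Ndufa6 and Ndufc2 moved in BMAd-Pnpla2-/-.

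The diet comparisons of the genotypes used separate AL samples, and 4 genes fell in both, namely Ndufb7, Ndufa11, Ndufs8 and Atp5k. They were 22.2% of the 18 called in BMAd-Pnpla2+/+ and 36.4% of the 11 called in BMAd-Pnpla2-/-, and 25 members were called in either. How many of all genes were called in both genotypes was not counted, so these shares have no background beside them. Ndufs8 stood at 72.6, 62.8, 68.4 and 56.9 CPM under AL and 55.1, 56.4, 50.7 and 50.2 under CR in BMAd-Pnpla2+/+. In BMAd-Pnpla2-/- it stood at 60.3, 59.9 and 62.3 under AL and 40.5, 49.3 and 41.0 under CR. Ndufa11 went from 27.6 to 32.0 CPM under AL to 23.0 to 26.8 under CR in BMAd-Pnpla2+/+ and from 27.1 to 28.6 to 18.8 to 21.3 in BMAd-Pnpla2-/-. In each case all CR samples were below all AL samples of the genotype. In BMAd-Pnpla2+/+ the call of Ndufa11 was lost in 5 of 11 other settings and with 5 of 14 samples left out in turn. That of Ndufs8 was lost in 3 of 12 and 4 of 14, and those of Ndufb7 and Atp5k were kept throughout. In BMAd-Pnpla2-/- each of the 4 lost its call in 1 or more of the fits with a sample left out. The promoters of all 4 held the NRF1 or the ETS letters within the window searched, with the ETS letters of Ndufs8 lying downstream of the start. So did those of 22 of the 67 members read (32.8%, against 12.4% of all genes with a promoter). The 4 were picked for their changes, so this is a description of them.

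Between the genotypes under AL no member differed by edgeR (0 of 83, as 0% of all genes), with 13 members at an unadjusted p under 0.05 (3 higher, 10 lower, 15.7% of members against 3.97% of all genes) and 1 called by DESeq2, Atp5o (0.109% of all genes). Atp5o stood at 13.6, 17.6, 13.2 and 13.1 CPM in BMAd-Pnpla2+/+ and 8.54, 7.95 and 9.11 in BMAd-Pnpla2-/- (log2 fold change -0.75 ± 0.17 SE, adjusted p = 0.638 in edgeR), without overlap. The median over members was -0.10, against -0.01 over all genes. Among genes averaging 50 counts or more, other low values were -0.53 for Atp5k, -0.45 for Uqcr11, -0.44 for Ndufb8, -0.43 for Uqcrh and -0.33 for Ndufa13, and the high values were 0.36 for Ndufc1, 0.34 for Ndufb4 and 0.32 for Cox8a. The 4 Sdh genes lay within -0.08 and 0.10, and Cox8b, with fewer counts, was at -1.14 (adjusted p = 1).

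Between the genotypes under CR no member was called by edgeR either (0 of 83, against 0.0171% of all genes, which is 3 genes), with 21 at an unadjusted p under 0.05 (10 higher, 11 lower, 25.3% of members against 23.2% of all genes). DESeq2 called 12 members, 3 higher and 9 lower, and 9.13% of all genes. Ndufa6 had the smallest adjusted p, with 60.1, 59.5, 48.1 and 48.6 CPM in BMAd-Pnpla2+/+ and the 3 lower values given above in BMAd-Pnpla2-/- (log2 fold change -0.61 ± 0.10 SE, adjusted p = 0.0541). Ndufv3 of the NADH-binding module was at -0.59 (adjusted p = 0.0596) and Atp5k at -0.77 (adjusted p = 0.0638), whereas Ndufc1 and Ndufc2 were at 0.59 and 0.54 and Atp5l and Atp5md at 0.50 and 0.49. In complexes II to IV the values ran from -0.27 for Sdhb to 0.25 for Sdhc, from -0.50 for Uqcr11 to 0.37 for Uqcrh, and, among genes averaging 50 counts or more, from -0.35 for Cox4i2 to 0.48 for Cox6a2. The count of members called was 10 without BMAd-Pnpla2+/+ CR replicate 4, where 12% of all genes were called, 4 without BMAd-Pnpla2+/+ CR replicate 3 (1.47%) and 2 without BMAd-Pnpla2+/+ AL replicate 2 (1.38%).

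Whether the response to CR itself differed between the genotypes was tested with the interaction of genotype and diet. No member was called by edgeR (0 of 83, as 0% of all genes), with 16 at an unadjusted p under 0.05 (12 higher, 4 lower, 19.3% of members against 10.4% of all genes), and DESeq2 called 2, Uqcrh and Ndufa6, and 0.343% of all genes. Uqcrh had the largest value, since it was lower under CR in BMAd-Pnpla2+/+ and stood at 47.1, 40.8 and 43.7 CPM under AL and 56.2, 53.4 and 43.2 under CR in BMAd-Pnpla2-/- (interaction 0.80 ± 0.16 SE, adjusted p = 0.337). Atp5o was at 0.78, Atp5l at 0.70 and Ndufb10 at 0.56 (adjusted p = 0.342 each). Ndufa6 was at -0.50 (adjusted p = 0.337), Atp5d at -0.44 and Ndufb7 at 0.00.

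Fold changes that involve the BMAd-Pnpla2-/- CR libraries were related to the GC content of the longest transcript of each gene, in members and in all genes alike. Across 17482 genes the Spearman correlation of GC content with the log2 fold change between genotypes under CR was -0.49, and across the 83 members it was -0.54. Between the genotypes under AL it was -0.07 and -0.02, for CR in BMAd-Pnpla2+/+ 0.04 and 0.18, and for CR in BMAd-Pnpla2-/- -0.30 and -0.31. Genes are not independent replicates, and the points of each comparison share its libraries. Of the members, 13 lay in the GC-poorest of 4 equal classes of all genes and had a median of 0.29 between genotypes under CR, against 0.23 for all genes of that class, while 20 lay in the GC-richest class and had a median of -0.19, against -0.26. When the GC trend was removed from the counts, a setting chosen after seeing the data, 23 members were called for CR in BMAd-Pnpla2+/+ (28.9% of all genes) and 11 in BMAd-Pnpla2-/- (6.82% of all genes). In the latter Ndufb7 (-0.45, adjusted p = 0.0672) and Ndufa4 were then no longer past the threshold, and Ndufv2 and Cox6c were newly called as lower. The part of GC content in the remaining values was not tested.

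**Figure D4:**
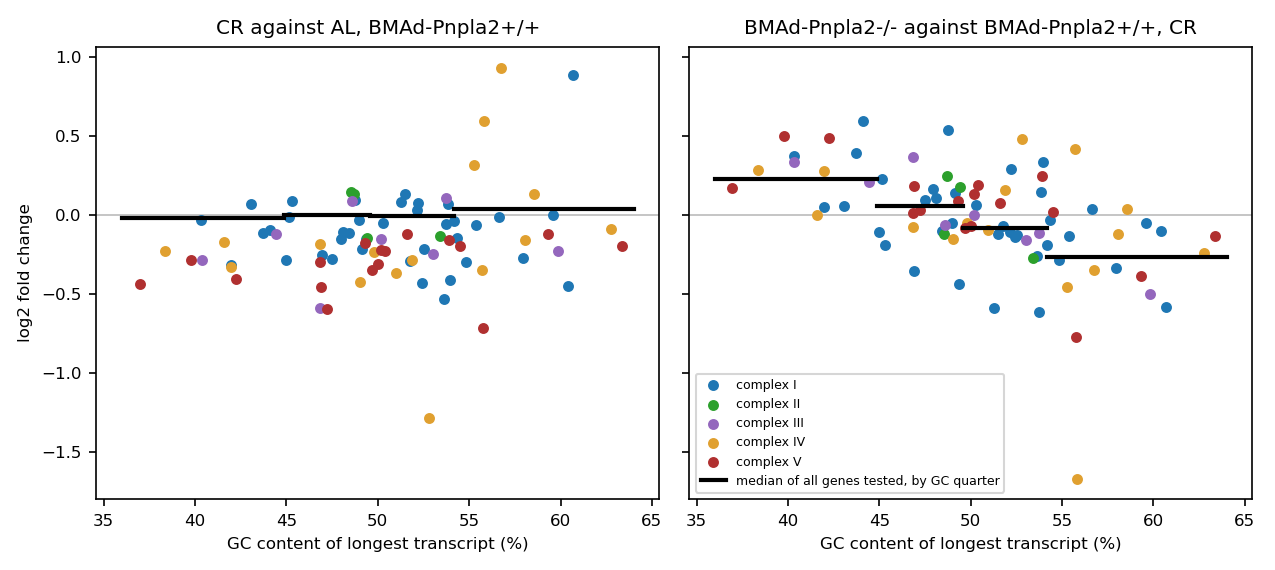
Log2 fold change (vertical axis) against the GC content of the longest transcript in percent (horizontal axis) for the 83 members, coloured by complex, for CR against AL in BMAd-Pnpla2+/+ (left) and BMAd-Pnpla2-/- against BMAd-Pnpla2+/+ under CR (right), with black bars at the median of all genes in each of 4 equal GC classes. On the right the class medians of all genes go from 0.23 to -0.26 and the members follow them, with a Spearman correlation of -0.54 against 0.18 on the left.

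The tissue isoforms of complex IV were expressed far below their general counterparts. Per kilobase and averaged over all samples, Cox6a2 stood at 7.65 CPM per kb against 272 for Cox6a1, Cox4i2 at 4.56 against 190 for Cox4i1, Cox7a1 at 1.76 against 73.5 for Cox7a2 and Cox8b at 1.03 against 250 for Cox8a. Cox6b2, known from testis, was the exception with 50.2 against 188 for Cox6b1. Cox6b2 ranged from 12.3 to 30.5 CPM within the BMAd-Pnpla2+/+ CR group, and its log2 fold change with CR was -0.35 (adjusted p = 0.375) there and 0.06 in BMAd-Pnpla2-/-. Cox7a1, a muscle and brown fat isoform, was at 0.32 and -0.10, but 62.0% of its few stranded reads lay on the opposite strand. Cox8b, of the same tissues, was at 0.60 and 0.08 and did not exceed 1 CPM as a group mean. None of these 3 isoforms was called in either genotype.

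**Figure D5:**
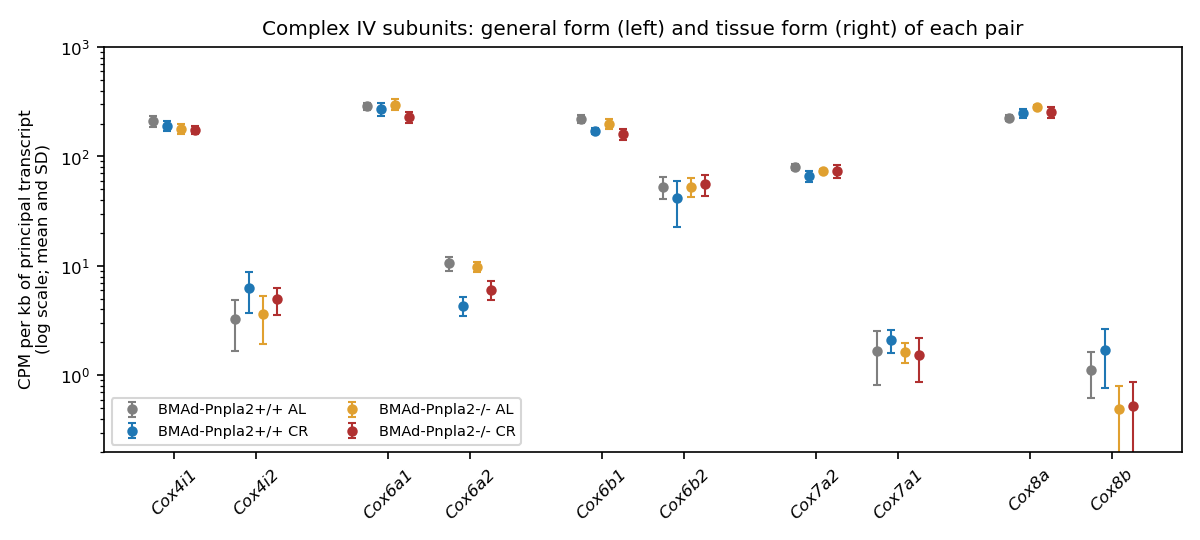
Group mean with SD of the level in CPM per kb of principal transcript (vertical log axis) of the tissue isoforms of complex IV and of their general counterparts in the 4 groups, where lower error bars of Cox8b run off the axis. Cox6a2 is lower under CR (4.33 against 10.5 CPM per kb in BMAd-Pnpla2+/+), while Cox6a1 is at 269.9 and 287 CPM per kb.

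Genes around the respiratory chain were read against the 26% and 11.6% of all genes called with CR in BMAd-Pnpla2+/+ and BMAd-Pnpla2-/-. Of 15 assembly factors of complex I, Timmdc1 fell by 0.38 on the log2 scale in BMAd-Pnpla2+/+, and Ndufaf3 and Ndufaf8 fell by 0.49 and 0.82 in BMAd-Pnpla2-/-. Among the 4 assembly factors of complex II, Sdhaf3 rose in both genotypes (0.65 and 0.69) and Sdhaf2 fell in BMAd-Pnpla2+/+ (-0.38, against -0.21 in BMAd-Pnpla2-/-), while Sdhaf4 was at -0.42 and 0.10 and Sdhaf1 at 0.34 and 0.60. Of 6 complex III factors, Uqcc2 fell by 0.47 in BMAd-Pnpla2+/+ and none was called in BMAd-Pnpla2-/-. Of 18 complex IV factors, Cox19 rose by 0.52 and Coa3 fell by 0.45 in BMAd-Pnpla2+/+, and Cox14 fell by 0.40 in BMAd-Pnpla2-/-. Of the 3 complex V factors, Tmem70 rose in BMAd-Pnpla2-/- (0.44, against -0.10 in BMAd-Pnpla2+/+), Atpaf1 was at 0.21 and 0.15 and Atpaf2 at -0.07 and -0.14.

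The electron carrier gene Cycs was at -0.30 in BMAd-Pnpla2+/+ (adjusted p = 0.152) and fell by 0.57 in BMAd-Pnpla2-/- (adjusted p = 0.0489), and Cyc1 of complex III, whose symbol the rule did not take, was at -0.07 and -0.09. Of the carriers that supply the ATP synthase, Slc25a5 was at -0.13 and 0.05, Slc25a4 at 0.34 and 0.13 and the phosphate carrier Slc25a3 at 0.06 and -0.02, and Atpif1, its inhibitor, was at -0.85 (adjusted p = 0.058) and -0.55. None of 12 enzymes of the citrate cycle was called in BMAd-Pnpla2+/+, and in BMAd-Pnpla2-/- Dld rose by 0.50 while Mdh2 and Idh3g fell by 0.43 and 0.36. Of 12 regulators of mitochondrial biogenesis, the coactivators Ppargc1a and Ppargc1b rose in BMAd-Pnpla2+/+ (1.10 and 0.73) and Gabpb1 and Nrf1 fell (-0.47 and -0.45). In BMAd-Pnpla2-/- Gabpa alone was called (0.36). Ppargc1a, low throughout, was not called there but was also higher under CR. It stood at 0.55, 0.53 and 0.75 CPM under AL and at 1.39, 1.71 and 1.99 under CR. Its means in BMAd-Pnpla2+/+ were 1.24 and 2.68 CPM, with overlapping groups. Ppargc1b had means of 5.34 and 6.17 CPM in BMAd-Pnpla2-/-. The uncoupling protein gene Ucp3 rose in BMAd-Pnpla2+/+ (1.0) and was at 0.85 in BMAd-Pnpla2-/- (adjusted p = 0.102), with Ucp2 at -0.36 and -0.29. No gene of these lists was called between the genotypes or for the interaction.

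Of the 11 tested subunits encoded by the mitochondrial genome, 4 rose with CR in BMAd-Pnpla2+/+ (mt-Nd1, mt-Nd5, mt-Nd6 and mt-Cytb, by 0.58 to 0.67 on the log2 scale). In BMAd-Pnpla2-/- 3 rose (mt-Nd1, mt-Nd5 and mt-Co1). Of all genes tested 15% rose in BMAd-Pnpla2+/+ and 6.01% in BMAd-Pnpla2-/-. None of the 11 subunits fell, and their medians were 0.46 and 0.68. The summed level of all 13, nearly all of it from mt-Nd1, mt-Nd2, mt-Nd4, mt-Nd5, mt-Nd6, mt-Cytb and mt-Co1, was 10871 to 13462 CPM in BMAd-Pnpla2+/+ AL, 13980 to 20762 in BMAd-Pnpla2+/+ CR, 13406 to 15836 in BMAd-Pnpla2-/- AL and 18047 to 31406 in BMAd-Pnpla2-/- CR, without overlap between the diets in either genotype.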

How the data were processed

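Total RNA of distal tibial plugs was sequenced by the authors as paired-end, strand-specific mRNA libraries. Reads were checked with FastQC 0.11.9 and aligned with STAR to mm10, per the labels and the study's methods, and the deposited files hold raw read counts per gene for unstranded, first-strand and reverse-strand counting in each sample, beside a count matrix of 23441 genes. Here the unstranded counts of the matrix genes were used for all 14 samples.

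Genes with low counts were removed (filterByExpr over the 4 groups), which left 17494, libraries were scaled by TMM, and 1 model of the 4 groups was fitted with edgeR 4.0.16 (robust quasi-likelihood F test, two-sided, R 4.3.3). Adjusted p-values are Benjamini-Hochberg values over all genes tested in each of 5 comparisons, and a gene was called, and is said to rise or fall, at an adjusted p under 0.05. Log2 fold changes are those of the edgeR fit, and SE is the size of the log2 fold change divided by the root of F. Log2 CPM values use a prior count of 2, and a level of a complex is the mean log2 CPM of its tested members. The test was checked on simulated counts. Intervals over samples cover the spread between pools of mice, and the labels do not say whether pools shared a litter or cage. Chi-square tests found no pair of replicates alike within sampling noise.

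Named were, for each complex and comparison, the 2 largest and 2 smallest log2 fold changes among members with a mean of at least 50 counts, all Sdh genes, members past 1 in absolute log2 fold change, the core, F1 and subunit c genes, the complex IV isoforms, members matched by name only, and called genes of the other lists (all genes of short lists). A member that the rule names is not reported here. The other members shown were called or were chosen after their values were seen. Members and lists were chosen with earlier results of these data known.

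Promoters came from RefSeq (GRCm38.p6). Alternatives tried were DESeq2 1.42.0 (its size factors and its Wald test), library totals alone, scaling without the 50 most abundant genes, no filter, all genes of the per-sample files, the deposited matrix, reverse-strand counts, only the groups compared, a prior count of 0.5, members without an opposite-strand overlap, the replicate number as a block, each sample left out in turn and, added after seeing the data, removal of the GC trend.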

Additional observations from a re-analysis of the deposited data

Results flagged for a closer look

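Atp5o stood at 17.6 CPM in BMAd-Pnpla2+/+ AL replicate 2, apart from the 13.1 to 13.6 CPM of the other 3 samples of the group. Its gap to the nearest of them was 0.875 of the range of the group, above Dixon's critical value for 4 samples. This check was made in 60 groups of 4 samples, and chance alone passes that value in about 1 of 20 groups. The counts of Atp5o are among those reduced by an overlapping gene of the opposite strand.

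Reads on the strand opposite to the gene, which the comparisons did not separate, made up 28.5% of the stranded reads of Ndufb2, 26% of those of Cox6a2 and 62.0% of those of Cox7a1 in the 11 stranded libraries, where 4.30% to 4.62% of all gene reads lay on that strand. Ndufb2 overlaps Braf and Gm16272, and Cox6a2 overlaps Itgad.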

How the results depend on the processing

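For CR in BMAd-Pnpla2+/+, 9 of the 18 members were called with every sample left out in turn (Atp5f1, Atp5k, Cox5b, Cox6a2, Cox6b1, Ndufa13, Ndufa3, Ndufb7 and Uqcrh) and 12 under every other setting that tested them. With a sample left out the count lay between 9 and 27 (12.7% and 26.6% of all genes in those fits). The median of the members then lay between -0.25 and -0.14, and with library totals alone the median was -0.11. With overlapping members left out 11 of 55 members were called, against 26% of all genes. For CR in BMAd-Pnpla2-/- the count lay between 0 and 15 with a sample left out (1.38% and 13.8% of all genes in those fits). None of the 11 was kept throughout, and the median lay between -0.11 and 0.02 (0.03 with library totals alone, -0.13 from the deposited matrix). DESeq2 called 19 members there (17.7% of all genes), and 1, 12 and 2 between genotypes under AL, under CR and for the interaction (0.109%, 9.13% and 0.343%). From the deposited matrix these were 19 for CR in BMAd-Pnpla2-/-, 19 between genotypes under CR and 7 for the interaction (22.3%, 14% and 3.87% of all genes). That matrix counts 3 libraries without strand and 11 with it, and the part of this in the counts of members called was not tested. The deposited matrix reversed the direction of Atp5l (-1.82 between genotypes under CR, -1.76 for CR in BMAd-Pnpla2-/-, -1.47 for the interaction) and Atp5o (-1.53, -1.47 and -0.89). It also reversed Ndufa9 (-0.32 and -0.46), Ndufb5 (-0.32 and -0.35) and Ndufb6 (-0.51 for CR in BMAd-Pnpla2-/-). Between genotypes under CR, library totals alone called 1 member, Ndufa6 (0.0457% of all genes). Leaving out a sample gave 0 to 10 there, with 12% of all genes called in the fit that gave 10, while the AL and interaction counts stayed at 0.

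Leaving the 50 most abundant genes out of the scaling raised every mean level, because fewer reads made up the total. In the order BMAd-Pnpla2+/+ AL, BMAd-Pnpla2+/+ CR, BMAd-Pnpla2-/- AL and BMAd-Pnpla2-/- CR the mean log2 CPM was then 5.26, 5.15, 5.16 and 5.12 for complex I, 6.72, 6.71, 6.69 and 6.73 for II, 6.26, 6.09, 6.11 and 6.10 for III, 5.16, 5.01, 5.09 and 4.96 for IV, and 6.49, 6.18, 6.38 and 6.22 for V. Complex IV in BMAd-Pnpla2-/- AL was 4.80 with library totals alone and 4.79 with a prior count of 0.5.

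No pairing of the samples by replicate number was seen in their expression. Deviations from the group means of same-numbered samples correlated at -0.37 to 0.33 over 19 pairs, 7 of them over 0.1. For differently numbered samples this was -0.44 to 0.36 over 54 pairs, 16 of them over 0.1. These correlations cannot show whether pools were matched by litter or cage. With the replicate number as a block 16 and 10 members were called for CR in BMAd-Pnpla2+/+ and BMAd-Pnpla2-/- (24% and 10.3% of all genes). In the other comparisons 0 were called (at most 0.0114% of all genes).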

Other observations

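Cox6b2 had its 3 lowest values, 12.3, 12.4 and 17.4 CPM, in BMAd-Pnpla2+/+ CR replicates 3 and 2 and BMAd-Pnpla2+/+ AL replicate 1, which were also the 3 samples with the lowest summed erythroid markers (10794, 11672 and 18732 CPM). The relation was noticed in the data and was not tested.

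BMAd-Pnpla2+/+ CR replicate 1 was the CR sample nearest to its AL group in the mean level of complexes I, III, IV and V, and BMAd-Pnpla2-/- CR replicate 3 had the lowest mean over all 83 members of any sample (5.10 log2 CPM).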
